A study of Homo sapiens with 4 samples.

Results

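The 299 human loci described here carry a strong GGAC core followed by A, C or U, yet their adenosine was classed as unmodified in HEK293T cells, a line of human embryonic kidney origin. The rule used the design class and the sequence alone, not the measured signal. It was set with earlier results of these data known. Members were the oligonucleotides of the unmodified design class with GGAC at positions 49 to 52 and A, C or U at position 53. The rule gave 897 of the 11999 oligonucleotides, and 299 of the 3949 distinct sequences. Each sequence was present in 3 copies that differed only in a 15 nt tag, and the 3 copies of a sequence were summed and are called a locus. GGACA was at the selected adenosine in 94 loci, GGACC in 165 and GGACU in 40.

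The study incubated in vitro transcripts with the recombinant METTL3–METTL14 writer complex (methylated, 2 libraries) or without it (unmethylated, 2 libraries), and mapped antibody crosslinks by miCLIP2. Its design text asks whether the complex itself prefers certain sequences. The RNA was synthetic, both groups held the same designed pool, and 500 ng of RNA entered each library, so neither chromatin, transcription nor other cell proteins were present. The same antibody against m6A was used in both groups, and the unmethylated libraries give the background at each nucleotide.

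N6-methyladenosine (m6A) is the most common internal modification of messenger RNA. METTL3 carries the catalytic site and METTL14 helps to hold the RNA. The complex acts on adenosines in DRACH motifs, in which a base other than C and a purine stand before the adenosine, a C behind it and then a base other than G. GGAC is a classic core of such motifs. Only a part of all DRACH motifs in cellular transcripts is methylated, and the exon junction complex is known to keep the writer away from many motifs near splice junctions. In miCLIP2 the antibody is crosslinked to the RNA, and reverse transcription stops there, so that a count at a nucleotide is a truncation assigned to it.

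The following windows, positions 37 to 65 of the designed sequences, are a selection of the loci described below, shown to set sequences with a called rise beside sequences, in the last group, that had plenty of signal without a call. They are read 5′ to 3′, and the capitals mark the 5-mer around the selected adenosine. Each line has the gene, the motif, and the chromosome, position and strand of that adenosine in GRCh38, as far as the deposited coordinates go. Loci with GGACA that were higher in methylated libraries are first.
MAGOHB GGACA, chromosome 12, 10613573, minus strand: caaggcgccgggGGACAcguuggcugcgu
TRIO GGACA, chromosome 5, 14291012, plus strand: cuggauuuggagGGACAgaagcugcuuca
FLCN GGACA, chromosome 17, 17213761, minus strand: ugcguccgaggaGGACAaugucaagcugc
CEBPA GGACA, chromosome 19, 33301579, minus strand: caagaagucgguGGACAagaacagcaacg
Loci with GGACC or GGACU that were higher in methylated libraries follow.
SH2B1 GGACC, chromosome 16, 28869339, plus strand: ucuacccagccaGGACCugcugcuuggac
NOC4L GGACC, chromosome 12, 132152295, plus strand: gaucuuugagcgGGACCugaagaagaagg
RPS6KL1 GGACC, chromosome 14, 74909551, minus strand: gaaccugcuccuGGACCaggcagguaggu
TRIO GGACC, chromosome 5, 14291083, plus strand: cucaggcaaugcGGACCugcagaaccucu
WDR1 GGACU, chromosome 4, 10083028, minus strand: ccucaugcugcgGGACUacaggugagagc
ARID1A GGACU, chromosome 1, 26729705, plus strand: agccauauggcgGGACUaacccauacucg
Loci with a strong signal in both groups that did not pass the test are last.
NDUFS6 GGACA, chromosome 5, 1815852, plus strand: ugaauuuuuucaGGACAaagaaacaaaaa
GPATCH8 GGACC, chromosome 17, 44399105, minus strand: gagcuauagccgGGACCgcagccgcagca
OGFR GGACC, chromosome 20, 62813379, plus strand: cccagcccggcaGGACCuacaagggauga
AMD1 and CDK19 GGACU, chromosome 6, 110815388, minus strand: aggagggaggcgGGACUgggggugccugc

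Of the 299 loci, 261 lay in exactly 1 gene of the RefSeq annotation, 30 in 2 genes and 8 in none, and the text uses a symbol as a locus name only for the first kind. The locus on chromosome 6 lies where AMD1 and CDK19 overlap. Where the annotation listed the strand of a gene, 217 of 219 loci were on that strand. Exon, intron and UTR positions were not analysed here. The 8 loci on chromosome 8 are counted but have no sequence printed.

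The selected adenosine took a larger part of the signal with the writer than without it. Over all 299 loci it held 8.97 and 8.75 per 1000 of the members' counts in the methylated libraries, against 3.43 and 3.70 per 1000 in the unmethylated libraries. These shares rest on 9184 and 8770 counts at the adenosine in methylated libraries and 2929 and 3642 in unmethylated ones. Both methylated values lay above both unmethylated values, by far more than the spread within a group (8.86 ± 0.159 against 3.56 ± 0.196 per 1000, SD, n = 2 each). The ratio of the means was 2.49. The exact two-sided permutation p over the 4 libraries was 0.333, the smallest that 2 against 2 libraries can give.

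Pooled over loci, the share with the writer and its ratio were highest at GGACA. Loci with GGACA held 10.6 and 9.40 per 1000 in methylated libraries, against 3.19 and 2.60 in unmethylated libraries, a ratio of 3.46. Loci with GGACC held 8.75 and 8.85 per 1000 against 3.52 and 4.06, a ratio of 2.32. Loci with GGACU, the smallest set, held 5.98 and 5.52 per 1000 against 2.99 and 2.65, a ratio of 2.04. In all 3 sets the groups did not overlap. In log2 units the rise of GGACA exceeded that of GGACC by 0.58 and that of GGACU by 0.77 (exact permutation p = 0.333 each, the smallest possible). GGACC exceeded GGACU by 0.19 (exact permutation p = 0.667). The library values behind this last difference overlapped, at 0.55 and 0.68 in methylated libraries and 0.24 and 0.61 in unmethylated ones.

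The pooled ratio moved when the locus with the most counts was left out. NDUFS6, which encodes a subunit of mitochondrial complex I, had the most counts of all GGACA loci, and without it the GGACA ratio was 4.09. GPATCH8, a gene for a G-patch protein, was the GGACC locus with the most counts, and without it the ratio of GGACC was 2.57 and that of all members 2.71. For GGACU the ratio was 1.97 without its top locus. As a mean over loci with at least 100 counts in every library, the ratios were 2.88 for GGACA, 2.35 for GGACC and 2.39 for GGACU.

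Read locus by locus, the shift was present in most loci with enough depth to see it. Depth was taken as at least 1000 counts over all positions of a locus in every library, a filter that does not rest on the adenosine. Of the loci that deep, 86 (63.2%) had a higher share at the adenosine in both methylated libraries than in both unmethylated ones, and 4 had a lower one. Over every position of all loci of this depth in the pool, methylated libraries lay above in 19.5% of cases. That background takes in all bases, whatever their counts, and its share of positions lying below was not computed. The median share at the adenosine of the deep member loci was 4.29 per 1000 in methylated libraries and 1.29 per 1000 in unmethylated libraries. By motif it was 3.97 and 1.18 per 1000 at GGACA, 5.32 and 1.66 at GGACC, and 3.13 and 0.537 at GGACU, so the median share with the writer was highest at GGACC. The 86 loci included 22 of 33 with GGACA, 54 of 86 with GGACC and 10 of 17 with GGACU.

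Single adenosines were tested with edgeR's quasi-likelihood test on all sites with a minimum of 10 counts in 2 or more libraries, adjusted over 142938 sites. At position 51, 91 of the 299 loci (30.4%) could be tested. Of these, 47 were higher in methylated libraries and 0 lower at an adjusted p under 0.05, while 3.70% of all tested sites were called higher and 2.01% lower. The 47 calls comprised 16 of 25 tested GGACA loci, 26 of 59 GGACC loci and 5 of 7 GGACU loci. The median log2 fold change over the 91 loci was 1.52 (quartiles 0.62 and 2.81, range −1.25 to 6.70), against −0.01 over all tested sites and 0.05 over all tested adenosines. The value of 6.70 came from a locus without any unmethylated count. Among called loci with counts in both unmethylated libraries the highest was 5.96. By motif the median over tested loci was 2.70 for GGACA, 1.24 for GGACC and 1.22 for GGACU.

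The filter itself shaped that list. At 31 of the 91 loci the minimum was met by the methylated libraries alone, so these had to differ. Among the named loci they included MAGOHB, FLCN, TIGD5, the GGACA on chromosome 3, SH2B1, CCDC88C, CCM2, WDR1, SON, MGAT4B and both TRIO loci. Counts of these loci could not overlap between the groups, so the lack of overlap is no support there. Another 44 had at least 10 counts in both unmethylated libraries. Of these 44, 19 were called higher, beside 2.75% of all sites under the same restriction. This restriction was added after seeing the data. It was not split by motif, so the calls and medians by motif keep their dependence on the filter. DESeq2, which gave an adjusted p for 74 of the loci, called 27 higher, all among the 47, and 2.57% of all sites. With locus totals as an offset, edgeR called 39 higher, of which 36 were among the 47, and 1.80% of all sites. Without methylated replicate 1 it called 30, all among the 47, with 9 of them at GGACA, and 2.26% of all sites. Of the 47 loci, 22 were called in every edgeR fit on the same sites, that is with other scaling, the offset, the replicate block and each library left out. These were 8 GGACA, 13 GGACC and 1 GGACU loci.

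Among the GGACA loci, MAGOHB gave the largest fold change with counts in every library. The gene encodes a core protein of the exon junction complex. Its adenosine held 16.2 and 22.7 per 1000 counts of the locus in methylated libraries, against 0.312 and 0.432 in unmethylated libraries. The groups were far apart, with a log2 fold change of 5.96 ± 0.54 SE (edgeR adjusted p = 9.35e-08). With 3 unmethylated counts in all, the ratio was 68.6 with a 95% counting interval of 23.2 to 334.8.

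FLCN, the gene for the tumour suppressor folliculin, had 71 and 89 counts in methylated libraries, against 4 and 6 in unmethylated libraries. Its log2 fold change was 3.71 ± 0.47 SE (edgeR adjusted p = 1.12e-05). TIGD5 on chromosome 8 had 59 and 44 counts against 5 and 1, with a log2 fold change of 3.79 ± 0.59 SE (edgeR adjusted p = 0.000167). A GGACA on the minus strand of chromosome 3 at position 12935721, where IQSEC1 and the uncharacterised LOC105376956 overlap, had 34 and 31 counts against 1 and 2. There the whole locus was also higher, with a mean of 1735.0 counts in methylated libraries and 458.5 in unmethylated libraries. Its log2 fold change was 4.08 ± 0.68 SE (edgeR adjusted p = 0.000403) and 2.48 against the total of the locus (edgeR adjusted p = 0.0792), so the call ended there. The ratio of its counts was 18.5, with a 95% counting interval of 6.05 to 92.

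The called GGACA locus with the most signal was in CEBPA, which encodes a transcription factor of myeloid and fat cell differentiation. It had 376 and 329 counts in methylated libraries, against 47 and 76 in unmethylated libraries. The groups did not overlap, and the log2 fold change was 2.27 ± 0.31 SE (edgeR adjusted p = 3.08e-05). The remaining 10 called GGACA loci that had no part in the naming rule had log2 fold changes of 1.59 to 4.04.

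The uncalled GGACA loci with the most signal were NDUFS6 and RTF1. NDUFS6 had 338 and 297 counts in methylated libraries and 141 and 140 in unmethylated libraries. The methylated values were higher without overlap, with a log2 fold change of 0.92 ± 0.28 SE that missed the threshold (edgeR adjusted p = 0.0528). It passed when libraries were scaled by their totals (edgeR adjusted p = 0.0421). RTF1, a gene for a factor of transcription elongation, had 199 and 94 counts in methylated libraries and 73 and 47 in unmethylated libraries. Its methylated libraries were unequal, and the log2 fold change of 1.03 ± 0.37 SE was not called (edgeR adjusted p = 0.107). Without methylated replicate 2 or unmethylated replicate 1 it was called (edgeR adjusted p = 0.00766 and 0.0096).

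Among the GGACC loci, SH2B1 led the loci with unmethylated counts. It encodes an adaptor of insulin and leptin receptor signalling. The adenosine held 27.4 and 23.9 per 1000 counts of the locus in methylated libraries, against 0.98 and 1.12 in unmethylated libraries (3 and 2 counts), with a log2 fold change of 5.20 ± 0.50 SE (edgeR adjusted p = 2.13e-07). NOC4L, a gene of small ribosomal subunit assembly, held 27 and 20.1 per 1000 against 0.847 and 2.36 (5 and 16 counts), and had a log2 fold change of 3.62 ± 0.42 SE (edgeR adjusted p = 3.77e-06). In both loci the groups lay far apart. CCDC88C, which encodes a Dishevelled-binding protein, had 49 and 38 counts against 1 and 4. CCM2, a gene of the cerebral cavernous malformation complex, had 46 and 74 counts against 2 and 7. Their log2 fold changes were 3.81 ± 0.61 SE and 3.44 ± 0.53 SE (edgeR adjusted p = 0.000231 and 0.000146).

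RPS6KL1, a gene for a ribosomal S6 kinase-like protein, was the called GGACC locus with the most signal. Its adenosine held 17.5 and 19.5 per 1000 counts of the locus in methylated libraries, against 4.03 and 2.40 in unmethylated libraries, with a log2 fold change of 2.69 ± 0.29 SE (edgeR adjusted p = 1.12e-06). The other 19 called GGACC loci outside the naming rule had log2 fold changes of 1.11 to 3.42.

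The uncalled GGACC loci with the most signal were GPATCH8 and OGFR. GPATCH8 had 664 and 581 counts in methylated libraries and 407 and 589 in unmethylated libraries. The groups overlapped, and the log2 fold change was 0.07 ± 0.27 SE (edgeR adjusted p = 0.928). OGFR, which encodes the opioid growth factor receptor, had 749 and 701 counts in methylated libraries and 290 and 420 in unmethylated libraries. Its groups did not overlap, but the log2 fold change of 0.78 ± 0.27 SE was not called (edgeR adjusted p = 0.0915). Set against the total of the locus it was 1.12 and was called (edgeR adjusted p = 0.00155). The total averaged 105317.0 counts in methylated libraries and 111522.5 in unmethylated libraries.

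Of the 40 GGACU loci 7 could be tested and 5 were called, with log2 fold changes of 1.19 to 4.61. WDR1, a gene for a cofactor of actin filament disassembly, had 31 and 34 counts in methylated libraries, against 1 and 1 in unmethylated libraries. Its log2 fold change was 4.61 ± 0.73 SE (edgeR adjusted p = 0.000204), and the ratio of its counts was 27.7 with a 95% counting interval of 7.38 to 233.9. Under the filter the counts of this locus could not overlap between the groups.

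The other 3 named GGACU calls rested on smaller changes and did not hold under every setting. ARID1A, a gene for a subunit of BAF chromatin remodellers, had 34 and 52 counts in methylated libraries, against 10 and 10 in unmethylated libraries, with a log2 fold change of 1.83 ± 0.46 SE (edgeR adjusted p = 0.0168). Its whole locus averaged 3796.5 counts in methylated libraries and 1447.5 in unmethylated libraries, and against that total the log2 fold change was 0.70 (edgeR adjusted p = 0.562). DDN, the gene for dendrin, had 96 and 69 counts against 32 and 27 (log2 fold change 1.22 ± 0.36 SE, edgeR adjusted p = 0.046). COL4A2, a type IV collagen gene, had 82 and 80 counts against 33 and 26 (log2 fold change 1.19 ± 0.35 SE, edgeR adjusted p = 0.0476). The methylated libraries lay above the unmethylated ones in all 3 loci, which were named because they were called. DESeq2 called none of the 3, with adjusted p of 0.0827, 0.146 and 0.151.

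The GGACU locus of AMD1 and CDK19 had 44 and 38 counts in methylated libraries and 58 and 52 in unmethylated libraries. These counts were lower without overlap, but the log2 fold change of −0.68 ± 0.35 SE was not called (edgeR adjusted p = 0.309). Its whole locus averaged 2173.5 counts in methylated libraries and 4535.0 in unmethylated libraries, so that the share at the adenosine was higher in methylated libraries (18.7 and 19 per 1000, against 13.5 and 10.9). A GGACU locus of SON, a nuclear speckle gene, had 12 and 11 counts in methylated libraries and 8 and 2 in unmethylated libraries, and was not called (edgeR adjusted p = 0.561).

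Of the named loci, 3 lacked counts in at least 1 unmethylated library. TRIO, a gene for a guanine nucleotide exchange factor, supplied a GGACC and a GGACA locus whose adenosines lie 71 nt apart. Its GGACC had 17 and 11 counts in methylated libraries, against 0 and 0 in unmethylated libraries, which is at least 3.97-fold higher when the floor is 3 counts per library. That locus passed the edgeR test (adjusted p = 0.00507), though not without methylated replicate 1 (edgeR adjusted p = 0.153). Its GGACA had 23 and 44 counts, against 1 and 0, a ratio of 57.2 with a 95% counting interval of 9.92 to 2292 (edgeR adjusted p = 0.000199). MGAT4B, a gene for an N-glycan branching enzyme, had 23 and 22 counts at its GGACC, against 2 and 0, a ratio of 19.2 with an interval of 5.02 to 163.4 (edgeR adjusted p = 0.00333). Intervals and floors from counts leave out any error beyond counting.

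Copies of one locus that differ only in their tag did not always give the same amount of signal. Tested as single oligonucleotides, 53 member sites were higher and 0 lower by edgeR, while 3.80% of all single-oligonucleotide sites were called higher and 1.84% lower. The calls fell on 16 of 30 GGACA, 33 of 81 GGACC and 4 of 13 GGACU oligonucleotides. Of 13 loci in which all 3 copies could be tested, 3 had a call in all copies, 3 in 2 copies, 3 in 1 copy and 4 in none. Within these loci the highest and lowest log2 fold change differed by 0.33 to 2.21, with a median of 1.25. Copies share their sequence and the 4 libraries, so they are not further replicates.

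The fold changes of RPS6KL1 and CEBPA passed the test in all copies, although the copies differed in counts. The 3 copies of RPS6KL1 had log2 fold changes of 2.82, 2.55 and 3.13, and those of CEBPA had 2.41, 2.56 and 1.72. In OGFR the copies had 0.70, 0.79 and 1.03, none of them called. In GPATCH8 copy 2 carried 601 and 536 counts in methylated libraries and 402 and 576 in unmethylated libraries, with a log2 fold change of −0.02. Copy 1 of the same sequence had 56 and 37 counts in methylated libraries, against 5 and 12 in unmethylated libraries, and was called (log2 fold change 2.20, edgeR adjusted p = 0.00841). In MAGOHB, NOC4L and the GGACC of TRIO nearly all counts came from a single copy.

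Among neighbouring nucleotides the shift was largest at the selected adenosine. At the nucleotide before it (position 50) the members' share was 4.27 and 5.15 per 1000 in methylated libraries, against 3.23 and 3.44 in unmethylated libraries, a ratio of 1.41. This was the highest ratio among the other offsets up to 10 nt on either side, and the lowest was 0.776. Of 668 tested sites at positions 46 to 56 other than the adenosine, 28 were higher (4.19%) and 20 lower (2.99%) by edgeR, beside 3.70% and 2.01% of all sites. At position 50, 10 of 70 tested loci were higher and 3 lower. FLCN, SH2B1, RPS6KL1, MAGOHB and CEBPA were among those higher at position 50, and in MAGOHB positions 47, 48, 49 and 53 were also called higher.

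Adenosines elsewhere in the same 299 sequences differed by motif. Of 59 tested GGACH adenosines away from position 51, 29 were higher by edgeR (49.2%), with a median log2 fold change of 1.57. GGACG adenosines, which lie outside DRACH, gave 15 higher of 27 (55.6%) and a median of 2.13. Other DRACH adenosines gave 36 higher of 120 (30%) and a median of 1.00, and 0 were lower in any of these 3 kinds. Among 2199 tested adenosines outside these motifs 62 were higher and 84 lower, with a median of −0.05. Summed over all their sites, the ratio of methylated to unmethylated CPM was 2.41, 2.62, 1.91 and 0.926 in the same order.

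Some selected adenosines occur again, with the same surrounding bases, at another position of a second designed sequence. A GGACC at position 35080010 of chromosome 9 had 201 and 264 counts in methylated libraries, against 15 and 37 in unmethylated libraries (log2 fold change 2.90). At position 13 of another sequence it had 29 and 41 counts, against 7 and 8 (log2 fold change 1.94, edgeR adjusted p = 0.0196).

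The TRIO GGACC had no unmethylated count in its own sequence, but in the other TRIO sequence, 71 nt further from the start, it had 13 and 22 counts in methylated libraries, against 5 and 2 in unmethylated libraries. There the log2 fold change was 2.01 and not called (edgeR adjusted p = 0.0926). The GGACU of EFNB2, an ephrin gene, had no count in any library in its own sequence. At position 97 of a cell-methylated EFNB2 sequence it had 9 and 15 counts in methylated libraries and 22 and 16 in unmethylated libraries, without a call (log2 fold change −0.93, edgeR adjusted p = 0.362). In TET3 the second copy of the GGACC was not called either (log2 fold change 0.37, edgeR adjusted p = 0.835).

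Loci of one gene could differ widely in counts. There were 10 genes with 2 member loci each. In LSS, which encodes lanosterol synthase, the GGACC had 432 and 393 counts in methylated libraries and 282 and 348 in unmethylated libraries, with a log2 fold change of 0.14 ± 0.27 SE (edgeR adjusted p = 0.854). The GGACU of LSS had only 3 and 2 counts in methylated libraries and 0 and 0 in unmethylated libraries. Its whole locus was also far less deep, with means of 565.5 counts in methylated and 453.5 in unmethylated libraries. The GGACC locus averaged 10916.5 and 9417.5. TRIO was the only gene with both loci tested, and both were called.

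The unmodified GGAC loci were then set against other selected adenosines of the pool. The cell-unmodified loci had a ratio of 2.49, as given above. The 1032 loci with the same 3 motifs that were classed as methylated in HEK293T cells held 15.8 and 15.1 per 1000 in methylated libraries, against 3.90 and 4.38 in unmethylated libraries, a ratio of 3.73. In unmethylated libraries the 2 classes were close, and the cell-unmodified loci lay lower by 0.22 in log2 units. In methylated libraries they lay lower by 0.80. The difference of these, −0.59, had an exact permutation p of 0.333, the smallest possible. By edgeR 47 of 91 tested cell-unmodified loci were higher (51.6%), beside 243 of 419 cell-methylated loci (58%), where 1 was also lower. With at least 10 counts in both unmethylated libraries these were 19 of 44 and 94 of 194. Over all 91 and 419 tested loci the median log2 fold changes were 1.52 in the cell-unmodified and 2.18 in the cell-methylated loci. They were 1.52 and 2.10 with loci that had no unmethylated count set at their bound. Among the loci with at least 10 counts in both unmethylated libraries the medians were closer, at 1.03 and 1.13.

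The difference between the classes was uneven over the motifs. For GGACA the ratios were 3.46 in cell-unmodified and 3.91 in cell-methylated loci, a log2 difference of −0.17 (exact permutation p = 0.667), with medians of 2.70 and 2.20. For GGACC they were 2.32 and 5.03, a log2 difference of −1.12 (exact permutation p = 0.333), with medians of 1.24 and 2.25. For GGACU they were 2.04 and 3.16, a log2 difference of −0.63 (exact permutation p = 0.333), with medians of 1.22 and 2.17. With bounds in place of fits for loci without unmethylated counts, the cell-methylated medians were 2.20, 2.13 and 2.02 in the same order. The GGACC value rested in large part on 1 cell-methylated locus, the GGACC of PIGU, which had 7496 and 6763 counts in methylated libraries and 230 and 333 in unmethylated libraries. Without the top locus of each class the difference was −0.37 for GGACC and −0.34 over all 3 motifs. For GGACA the sign depended on 1 library, with a difference of 0.03 without unmethylated replicate 1.

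Within the cell-unmodified design, GGAC lay above the other upstream bases in its ratio. Its ratio was 2.49. The 202 GAAC loci held 5.80 and 5.60 per 1000 in methylated libraries and 3.27 and 2.70 in unmethylated libraries, a ratio of 1.91. The ratio was 1.42 at 361 AGAC loci and 1.33 at 369 UGAC loci. In log2 units GGAC exceeded GAAC by 0.37, AGAC by 0.81 and UGAC by 0.91 (exact permutation p = 0.333 each). By edgeR 51.6% of tested GGAC loci were higher, beside 33.3% of GAAC loci, 13.7% of AGAC loci and 14% of UGAC loci. These shares depend on the filter, which loci with little background can pass through methylated libraries alone. Among loci with at least 10 counts in both unmethylated libraries, 19 of 44 GGAC loci, 6 of 22 GAAC loci, 9 of 75 AGAC loci and 12 of 69 UGAC loci were higher. GGAC and AGAC loci had similar shares with the writer, 8.86 ± 0.159 and 8.60 ± 0.531 per 1000 (SD, n = 2 each). Without it the GGAC loci held 3.56 ± 0.196 and the AGAC loci 6.05 ± 0.246 per 1000. The UGAC loci held 7.64 ± 0.577 per 1000 with the writer and 5.76 ± 0.243 without it.

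Flanking bases and predicted pairing varied among the members, with no test. By the base before the motif, 16 of 31 tested loci with A, 4 of 14 with C, 16 of 24 with G and 11 of 22 with U were higher by edgeR. By the base after the motif, the counts were 15 of 31 with A, 6 of 18 with C, 14 of 22 with G and 12 of 20 with U. Loci were also divided by the predicted probability that the adenosine is unpaired. The pooled share in methylated libraries was 4.87 ± 0.245 per 1000 in the most paired loci, 8.54 ± 0.513 in the middle ones and 11.6 ± 0.231 in the most unpaired. The shares in unmethylated libraries were 1.75 ± 0.0238, 3.21 ± 0.0164 and 4.98 ± 0.391 per 1000 (SD, n = 2 each). Signal was higher at unpaired adenosines in both groups, and the ratios were 2.78, 2.67 and 2.34. Over the 91 tested loci Pearson's r of the log2 fold change was −0.12 with the unpaired probability, −0.24 with the GC content of the surrounding 41 nt and 0.17 with the number of DRACH motifs in the sequence. These are descriptions over loci that share the same libraries.

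Most members were not tested singly. At 80 of the 299 loci position 51 had no count in any library, and at another 39 untested loci it had counts only in a methylated library. Untested loci with counts only in an unmethylated library, such as RNPEPL1 and STAT5B, also occurred. Their number was not taken, so the 39 loci alone show no direction. The 208 loci that were not tested had a median total of 381.4 counts per library, against 4034.0 in the tested loci. Pooled, the adenosine of the untested loci held 1.56 and 1.48 per 1000 in methylated libraries, against 0.704 and 0.75 in unmethylated libraries, without overlap and with a ratio of 2.09. This pooled share rests on 408 and 403 counts in methylated libraries and 150 and 177 in unmethylated libraries.

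All 4 libraries were of similar depth. Totals were 13110615 and 13265092 counts in methylated libraries and 10483825 and 12028474 in unmethylated libraries, of which the members held 855120 to 1023817. Locus totals differed between libraries of a group by more than sampling noise, with a chi-square over its degrees of freedom of 38.4 in methylated and 44.1 in unmethylated libraries. The labels state duplicate experiments but not separate reactions, so p-values measure only the spread between these libraries, which may be technical.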

How the data were processed

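The authors deposited raw counts per nucleotide, 141 positions for each oligonucleotide and library, without normalization. FastQC 0.11.8, STAR 2.7.3a and bedtools 2.27.1 are named in the submitters' processing notes. The role of each tool, the handling of duplicate reads and the build of the genome were not given in the sources used here. Per the labels, 2 libraries were methylated and 2 unmethylated.

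Counts of the 3 tag copies were summed per locus. A site needed 10 or more counts in 2 or more libraries and was tested with edgeR 4.0.16 in R 4.3.3 by the quasi-likelihood F test, scaled by TMM and with no term but the group, with Benjamini-Hochberg adjustment over all 142938 tested sites and a threshold of 0.05. Standard errors are the log2 fold change over the square root of F. Pooled shares were compared by exact two-sided permutation over libraries. Folds against 0 use a floor of 3 counts per library, and count ratios have 95% exact counting intervals. On simulated counts over the same sites, 64% of 4-fold and 92% of 8-fold rises were called, but 0% of 2-fold rises. Each fold had 25 sites drawn at random from all tested sites, not matched to the depth of the members. Alternatives were DESeq2 1.42.0, library totals, the locus total as offset, other filters, single oligonucleotides, each library left out and a replicate block.

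For each base at position 53 the text names the 4 called loci with the largest fold change and counts in both unmethylated libraries, the called locus with the highest mean CPM, and the 2 uncalled loci with the highest. It also names the 3 largest called changes with a 0 in an unmethylated library. LSS, PIGU, EFNB2, TET3 and the chromosome 9 locus entered through other comparisons and were picked after their values were seen. Members and lists were chosen with earlier results of these data known. Genes are RefSeq genes of GRCh38.p14 that overlap the deposited coordinates. At 73 of 73 loci whose window lies in a RefSeq promoter, the deposited coordinate matched that build. Pairing was predicted with ViennaRNA 2.7.2 and summarised with scipy 1.17.1, numpy 2.4.6 and pandas 2.3.3. Results on 1 further gene are not reported here.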

Additional observations from a re-analysis of the deposited data

How the results depend on the processing

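The direction of the pooled shift and the medians above 0 held under all alternatives run. Called loci numbered 47 of 91 with the settings of the report (3.70% of all sites called), 27 of 74 in DESeq2 (2.57%) and 23 of 37 with at least 50 counts (8.32%). With 1 library left out there were 30 to 43 of 91 (2.26% to 3.99% of all sites), with library totals 48 of 91 (3.84%), and against the locus total 39 of 91 (1.80%), of which 36 were among the 47. With a filter of at least 1 count, 46 of 219 loci were higher (1.24% of all sites), 44 of them among the 47, and 1 was lower by edgeR, where 0 were before. By motif the calls were 10 of 18 in DESeq2 and 7 of 8 with at least 50 counts for GGACA (9 to 18 of 25 with 1 library left out), 16 of 51 and 14 of 26 for GGACC (18 to 23 of 59), and 1 of 5 and 2 of 3 for GGACU (2 to 4 of 7), where the locus total as offset left 3. Fewer loci were tested in DESeq2 and with at least 50 counts. The 28 calls beside the adenosine became 16 in DESeq2, 15 against the locus total and 16 to 35 with 1 library left out. The median log2 fold change of 1.52 was 1.42 with at least 1 count, 1.24 with at least 50, and 1.44 to 1.59 with 1 library left out. The ratio of 2.49 was 2.34 with library totals as denominator, 2.71 without its top locus and 2.39 to 2.59 with 1 library left out. Without the top locus it was 4.09 for GGACA, 2.57 for GGACC and 1.97 for GGACU. As a mean over loci with at least 100 counts in every library it was 2.88 for GGACA, 2.35 for GGACC and 2.39 for GGACU. In that setting the lead of GGACA was smaller, and GGACU did not lie below GGACC. The log2 difference from the cell-methylated loci, −0.59, was −0.48 as a mean over loci, −0.75 in CPM and −0.34 without the top loci. The split of this difference by motif was chosen after seeing the data. It gave −0.54 as a mean over loci and −0.38 to 0.03 with 1 library left out for GGACA, with the sign turned (0.03) without unmethylated replicate 1. It gave −0.66 as a mean over loci, −1.33 in CPM and −0.37 without the top loci for GGACC, and −0.39 as a mean over loci for GGACU. The cause of the other changes was not tested.

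With the replicate number as a block, edgeR called the same 47 loci higher, and the median was 1.48. Deviations of same-numbered libraries correlated at −0.0835 over all tested sites and at 0.0622 over the tested member loci at position 51. With 2 libraries per group, these values cannot tell whether same-numbered libraries shared a preparation. Over the 23 named loci and all alternatives, 212 values kept their direction and side of the threshold, 15 lost the call, 8 gained it and 3 uncalled values changed sign. At 208 of 299 loci the adenosine was under the count minimum.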

Other observations

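PLOD1 and BPTF, singled out after their values were seen, had lower totals in methylated libraries. PLOD1, which encodes a lysyl hydroxylase of collagen, held 5.77 and 6.51 per 1000 counts of the locus at its GGACC in methylated libraries, against 1.63 and 1.80 in unmethylated libraries. The groups did not overlap, but the log2 fold change of the counts, 0.45, was not called (edgeR adjusted p = 0.445). The whole locus averaged 24412.0 counts in methylated libraries and 53322.5 in unmethylated libraries. Against that total the log2 fold change was 1.84 and was called (edgeR adjusted p = 4.29e-05). Positions 47, 48, 49, 50, 54, 55 and 56 of this locus were called lower.

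BPTF, the gene for a subunit of the NURF chromatin remodeller, had the lowest fold change of the tested members. Its GGACA had 15 and 16 counts in methylated libraries and 26 and 36 in unmethylated libraries, with a log2 fold change of −1.25 (edgeR adjusted p = 0.106). The whole locus averaged 1541.0 counts in methylated libraries and 4592.0 in unmethylated libraries, and against that total the log2 fold change was 0.58 (edgeR adjusted p = 0.646). These 2 loci gave 14 of the 20 lower calls beside the selected adenosine. Why whole loci differed in total between the groups was not tested.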
